A study of Bos taurus with 12 samples.

Results

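The region described here is the 2 Mb of bovine chromosome 2 from 132000001 to 134000000 in the build ARS-UCD1.2, in the blood of 12 dairy cows. Its members are the rows of the authors' tables that start inside these bounds: 793 of 196275 listed CpG sites (0.404%) and 3 of 1227 listed tiles, which are windows of 500 bases. The window was chosen for its listed rows, and every row had been selected on the difference between the same cows, so differences between the groups are described here and not tested. CDA and UBR4 give the window its working name, but the listed sites run on past both: the first is nearest to PINK1 and the last to LOC536229, the gene annotated as paired box protein Pax-7. UBR4 lies well inside the window and not at its end.

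Blood was taken from cows of the species Bos taurus kept under the same conditions on 1 farm. The MSG group held 6 cows that were culled within 1 year for complications of mastitis, an inflammation of the udder that is usually due to infection, and the MRG group held 6 cows of similar age that stayed in the herd. The labels gave no exact age, breed, treatment or blood cell count. Replicate numbers (MSG1 to MSG6 and MRG1 to MRG6) follow the order of the records and pair no cows.

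Methylation was read by enzymatic methylation sequencing, in which unmodified cytosines are converted and read as thymines while methylated ones stay cytosines. A value is the percentage of reads that kept the cytosine at a site in a cow. In mammalian DNA most CpG cytosines are methylated, whereas active promoters rich in CpG usually are not, and the methylation of neighbouring CpGs on 1 DNA molecule tends to go together. A thymine that a cow carries in its own sequence at such a position is read like an unmethylated cytosine. No genotype of the cows was used, and the part of sequence differences in any value below was not tested. Whole blood mixes many kinds of white cells, so a shift in their proportions and a change of methylation within a kind of cell cannot be told apart. Depth per cow was not used, and the spread between cows is the only error given.

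Within the window 432 sites were listed as lower in MSG and 361 as higher. The lower sites were 54.5% of the total, beside 47.3% of all listed sites and 54.5% of the other sites of chromosome 2. At the lower sites the cows' means were 21.6% ± 20.4 in MSG and 63.2% ± 21.4 in MRG (SD over cows, n = 6 each, here and throughout). At the higher sites they were 85.3% ± 6.70 in MSG and 49.4% ± 23.9 in MRG. The median absolute difference of the group means was 38.5 percentage points, against 32.7 over all listed sites. The median SD within a group was 29 points in the window and 26.4 over all sites, so the cows of a group differed widely from each other at a typical site.

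Few sites separated the groups. At 16 of the 793 sites every MSG cow lay on 1 side of every MRG cow, 9 of them higher and 7 lower in MSG. Over all listed sites 2.36% did so in either direction, 1.39% higher and 0.971% lower, and the window's share of 2.02% was near this background. This count can only stay or rise when a cow is left out, and the matching counts over all listed sites were not made. The window's count was 92 without MRG1, 58 without MSG3, 37 without MRG3, 26 without MRG6 and 25 without MSG6. Leaving out MRG1 or MSG3 thus freed the most sites from overlap.

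**Figure D1:**
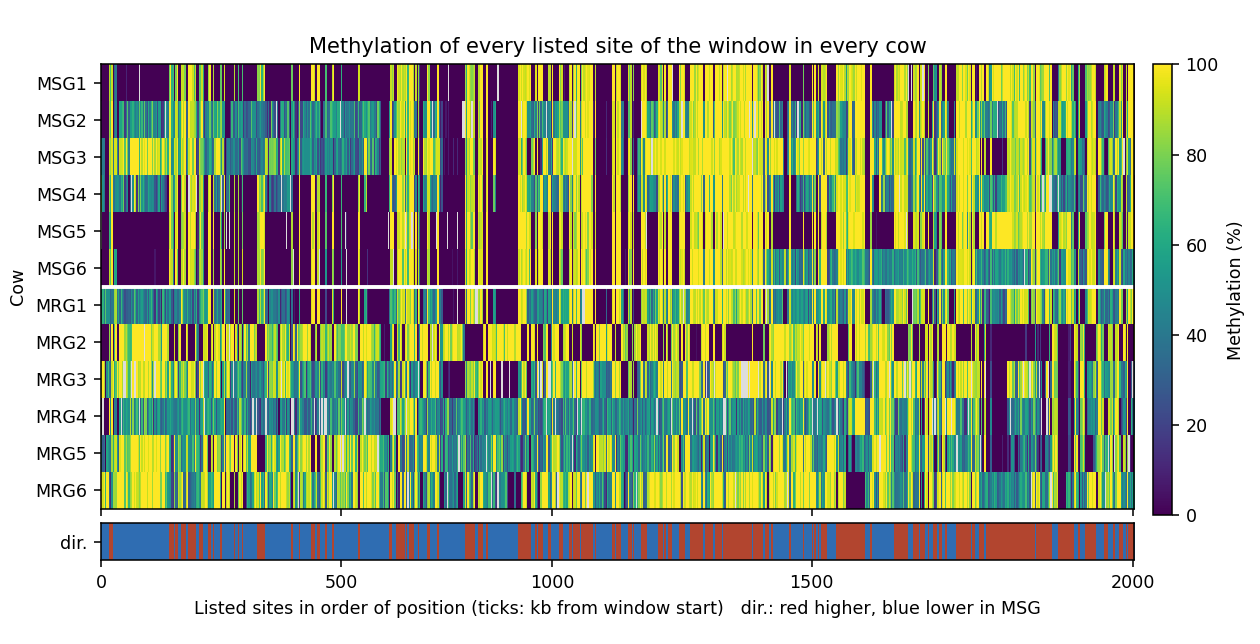
Percent methylation of the 793 listed sites (columns, in order of position, with distance from the window start in kb) in the 12 cows (rows, MSG above and MRG below the white line), with missing values in grey and a strip for the listed direction. Low and high values lie close together within a cow in many places, MSG1 and MSG5 are almost wholly dark or bright, and MRG4 is intermediate at 73.4% of its values.

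The direction changed along the window. In the first 1 Mb 249 of 346 sites (72%) were lower in MSG, and in the second 183 of 447 (40.9%). Among the sites at which no cow was at exactly 0, an alternative chosen after seeing the data, the lower share was 21.7% of 23 and 4% of 25. In steps of 250 kb higher sites made up 27.2%, 22.2%, 13.6%, 38.1%, 45.3%, 58.4%, 56.6% and 71.4%. In the 250 kb just before the window they were 8.33% of 36 sites, and in the 250 kb just after it 17.3% of 375. The bounds of the window are round positions and did not follow the listed sites: the last site before it (131998154) was listed at −29.8 points and the first inside (132011315) at −34.0, the last inside (133962020) at −38.1 and the first after (134003020) at −50.1, in the authors' deposited table.

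**Figure D2:**
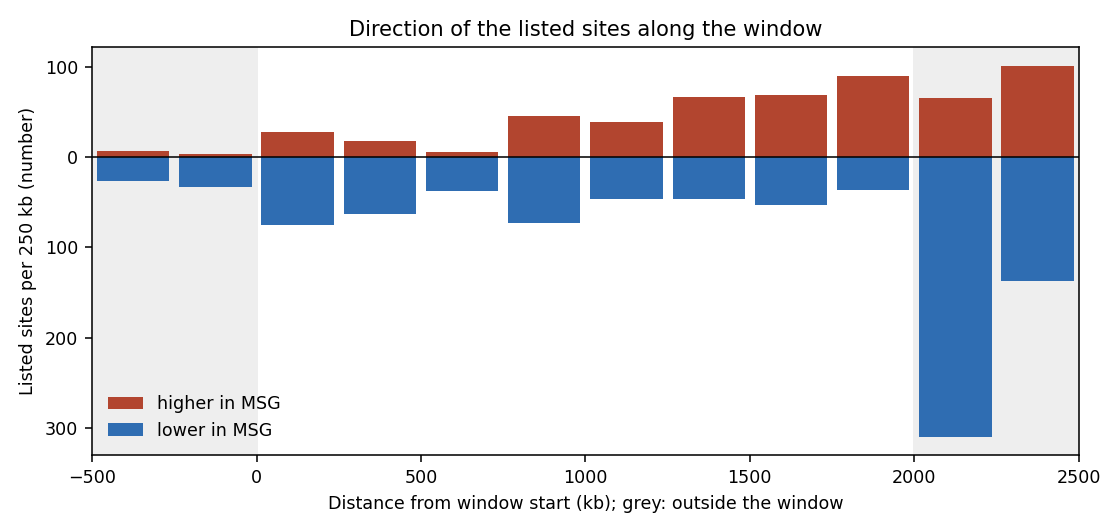
Listed sites per 250 kb (bars; up, higher in MSG; down, lower in MSG) against distance from the window start in kb, with the regions outside the window in grey. Higher sites rise from 6 in the third step to 90 in the last, and the step just after the window holds 310 lower sites.

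By the authors' annotation 397 sites were intergenic, 266 intronic, 114 in promoters (within 3 kb of a start), 12 in 3' untranslated regions, 3 in exons and 1 in a 5' untranslated region. Promoter sites made up 14.4% of the window and 5.44% of all listed sites. Of the 114 promoter sites 80 were lower in MSG, against 133 of 266 intronic and 212 of 397 intergenic sites. A few genes held many of the lower promoter sites: all 15 of CDA, all 17 of TMCO4 and 13 of the 15 of PLA2G2F. All 11 promoter sites of TAS1R2 were higher. The lower share of each class over all listed sites was not counted. The sites belonged to 549 CpGs. Both strands were listed for 244 CpGs, with the same direction on both strands in all 244. Joined over gaps of at most 1 kb, the sites formed 307 runs, of which 115 held a single site. A gene's symbol below is that of the nearest start in the authors' table, which is not always the gene that holds the site: of 269 sites that the table puts in an intron or exon, 70 lay in another gene than the nearest.

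CDA encodes cytidine deaminase, an enzyme of pyrimidine salvage that turns cytidine into uridine. The gene (chromosome 2, 132018286 to 132042156) had 49 listed sites, 46 of them lower in MSG, and all 15 of its promoter sites, on 9 CpGs, were lower. At the 46 sites the cows' means were 28.1% ± 32.4 in MSG and 72% ± 21.6 in MRG. MSG cows ran from 0% to 80.5% with a median of 22%, and MRG cows from 43.8% to 91.4% with a median of 82.3%. The groups overlapped, because MSG3 stood at 80.5% while MRG4 stood at 43.8% and MRG1 at 45.2%. At the promoter sites the MSG cows fell into 3 levels: 0%, 0% and 0.392% in MSG1, MSG5 and MSG6, 53.6% and 46.1% in MSG2 and MSG4, and 94.1% in MSG3. The MRG cows took only the upper levels there, with 43.7% and 52.6% in MRG1 and MRG4 and 91.4% to 98.4% in the other 4. A run of 12 sites in an intron of the gene (132037669 to 132038599) showed the same levels, at 32.9% ± 38.7 in MSG and 77.7% ± 21.2 in MRG. Against this direction, the widest gap between the groups among sites higher in MSG was also in a CDA intron, at 132022950: the MSG cows had 55% to 83.3% and the MRG cows 11.8% to 45.5%, 9.55 points apart at the closest.

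Further along lie VWA5B1 and UBXN10, the latter of the UBX domain family whose members bind the p97 ATPase. VWA5B1 had 15 of 23 sites lower in MSG, at 13.2% ± 20.4 in MSG and 52.8% ± 32.2 in MRG. UBXN10 had 22 of 23 lower, at 22.2% ± 27.2 in MSG and 64% ± 23.4 in MRG, and all 23 were intergenic. At the lower sites of both genes MSG1, MSG5 and MSG6 stood at 0%, and at those of VWA5B1 MRG1 did too.

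Secreted phospholipases A2 release fatty acids from membrane phospholipids, and several act in inflammation and against bacteria. Their gene cluster lies in the first 1 Mb of the window. Of the 14 genes in a list of this family, 6 had listed sites anywhere, 83 sites in all with 65 (78.3%) lower in MSG. Of these sites 82 lay in the window. Among all listed sites of its first 1 Mb, these included, 72% were lower, and 47.3% over the whole genome. The family's share was thus near that of its surroundings. PLA2G2F had 34 of 38 sites lower and PLA2G2C 21 of 28. PLA2G5 had 7 of 9 lower, both sites of PLA2G2A were lower, and all 5 of PLA2G2E were higher. LOC615045, annotated as phospholipase A2, membrane associated, was not in the list, and its 2 sites were both higher in MSG. The cows' means at the lower sites of PLA2G2F (chromosome 2, 132496038 to 132509464) were 17.9% ± 22.8 in MSG and 60.1% ± 31.9 in MRG. MSG2 and MSG3 stood at 48.2% and 46.1% and the other 4 MSG cows at 1.89% to 6.54%. MRG1, at 7.04%, lay near these 4, and the other MRG cows had 45% to 87.4%. PLA2G2C showed the same split, at 13.3% ± 20.4 in MSG and 57.2% ± 35.3 in MRG, with MRG1 at 0%.

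A pair of overlapping tiles lay 4.29 and 4.54 kb from PLA2G2F, in intergenic sequence that spans 132513751 to 132514500. The first stood at 43.2% ± 23 in MSG and 73.4% ± 28.2 in MRG, and the second at 33.7% ± 18.5 and 68.1% ± 26.3. They held 4 and 6 listed sites, all lower in MSG, and the 4 of the first were among the 6 of the second. In the first, MSG2 and MSG3 had 72.4% and 73.2%, the other MSG cows 26.4% to 31.6%, MRG1 21.9% and the other MRG cows 64.9% to 95.4%, the split of the single sites. The third tile (132901501 to 132902000), 13.9 kb from TMCO4, stood at 30.7% ± 3.60 in MSG and 53.3% ± 22.4 in MRG. There the MSG cows kept within 26.1% to 36.4%, whereas MRG3 had 25% and MRG2 89.9%. All 3 tiles, the pair with shared sites among them, were lower in MSG, where 43.8% of all listed tiles were. In none of the 3 were the groups' cows apart, and over all tiles they were in 6.03%.

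Ubiquitin enzymes followed. OTUD3 encodes a deubiquitinase and RNF186 a ubiquitin ligase of the endoplasmic reticulum. OTUD3 had 8 of 14 sites lower in MSG, and at these the groups' means did not overlap, with MSG cows from 21.8% to 36.6% with a median of 28% and MRG cows from 38.7% to 73.1% with a median of 62.6%. The difference at these 8 sites was -29.2 points, or -49 by each cow's median over them, and over all 14 sites it was -3.85. An intronic site of OTUD3 at 132820557 had the widest gap among sites lower in MSG, 10 points, with 66.7% ± 2.25 in MSG and 91.7% ± 7.29 in MRG, where 5 cows had a value. RNF186 had 20 of 23 sites lower, at 16.9% ± 20.3 in MSG and 54.1% ± 22.3 in MRG, and MRG2 was the highest of all cows there at 90.1%.

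TMCO4 (chromosome 2, 132915932 to 133020007), which encodes a protein with transmembrane and coiled-coil domains, had 69 sites, 40 lower and 29 higher in MSG. All 17 of its promoter sites, on 9 CpGs, were lower. At the 40 lower sites the MSG cows all stood low, from 0% to 14.6% with a median of 3.37%. MRG cows ran from 8.17% to 89.5% with a median of 40.6%: MRG1 and MRG3 lay close to MSG, at 8.17% and 16.4%, then came MRG6 at 34.6%, MRG4 at 46.5% and MRG5 at 56%, and MRG2 stood alone at 89.5%. Over all 69 sites, lower and higher together, the groups differed by -6.54 points, against -36.9 at the lower ones. The levels at the lower sites differ from CDA, where MSG cows were spread over 3 levels and MRG2 was 1 of several high cows. A run of 13 sites between RNF186 and TMCO4 (132901402 to 132902541) had the sharpest form of it, with no MSG cow above 2.30%, MRG1 and MRG3 at 0.521% and 1.80%, and MRG2 at 88.9%. In the next run of 10 or more sites (132908807 to 132911483) 6 sites were lower and 8 higher, so lower and higher sites lay side by side within 3 kb.

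HTR6, a serotonin receptor gene, had 16 of 23 sites lower, at 32.3% ± 32.7 in MSG and 68.3% ± 15.3 in MRG, and 12 of its sites lay in TMCO4. LOC535280, annotated as neuroblastoma suppressor of tumorigenicity 1, had 14 of 17 sites higher in MSG, at 94.6% ± 1.81 in MSG and 63.8% ± 35.3 in MRG. MRG2 stood at 5.95% there, MRG4 and MRG5 at 52.2% and 46.9%, and the other 9 cows at 90.1% or above. Without MRG2 its difference was 19.3 points in place of 30.8. The U6 spliceosomal RNA gene LOC112443618 had 12 of 13 sites lower, and its groups did not overlap: no MSG cow was above 1.04%, while MRG cows ran from 2.78% to 94.4% with a median of 44.9%. MRG1 was the one at 2.78%, so the groups were apart by less than 2 points. Of these 13 sites 10 lay in MICOS10, whose protein is part of the complex that shapes mitochondrial cristae. MICOS10 as nearest gene had 13 sites higher and 12 lower, and the means at the 13 higher sites differed by 33.9 points, or 22.3 without MRG2. With all 25 together the means differed by -0.697 points.

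CAPZB (chromosome 2, 133201115 to 133340081) encodes the beta subunit of the capping protein that binds the fast-growing ends of actin filaments. It had 20 sites lower and 20 higher in MSG as nearest gene. Of these 40 sites 30 lay in its introns, 12 lower and 18 higher, and 10 were intergenic. Another 24 sites in its introns were assigned to SLC66A1. With the 30 these made 54 sites inside CAPZB, 16 lower and 38 higher. At the 20 lower sites the cows' means were 31.9% ± 39.4 in MSG and 74.9% ± 19 in MRG. MSG1, MSG5 and MSG6 stood at 0%, MSG4 and MSG2 at 45% and 49.6%, and MSG3 at 97%, the 3 levels of the CDA promoter. Over all 40 sites the means differed by -3.53 points.

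SLC66A1, whose protein exports cationic amino acids from lysosomes, had 36 of 40 sites higher in MSG. At these the 6 MSG cows were nearly alike, from 95.6% to 96.7% with a median of 96.3%, and the MRG cows ran from 18.7% to 92.9% with a median of 66.6%. No MRG cow reached the lowest MSG cow, and the highest was MRG1. AKR7A2, an aldo-keto reductase gene, had 12 of 14 sites higher, at 95.5% ± 1.95 in MSG and 63.8% ± 39.3 in MRG, with MRG2 at 0% and MRG3 above every MSG cow at 98.6%. Without MRG2 the difference fell from 31.8 to 19 points.

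UBR4 (chromosome 2, 133452143 to 133589435) encodes a very large ubiquitin ligase that recognises N-degrons, the destabilising first residues of proteins. It had 16 of 20 sites lower in MSG, and 15 of the 20 were intronic. The cows' means at the 16 sites came to 33.5% ± 32.1 in MSG and 78.1% ± 21.1 in MRG. MSG1 and MSG5 stood at 0% and MSG3 at 86%, above MRG1 and MRG4 at 49.3% and 53.6%. MSG6, at 0% in CAPZB and at 2.72% in CDA, was at 43% here. Its share of values from 20% to under 80% was between 1.27% and 7.77% in the first 5 steps of 250 kb, 31.9% in the sixth, and 72.1% and 72% in the last ones.

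In the last steps of 250 kb 69 of 122 and 90 of 126 sites were higher in MSG. The U3 small nucleolar RNA gene LOC112443683 was nearest to 93 sites, 52 higher and 41 lower, of which 74 were intergenic. Its higher sites stood at 82.6% ± 11.8 in MSG and 49.8% ± 20.2 in MRG, and over all 93 the means differed by -0.681 points. A run of 11 higher sites there (133633564 to 133636240) had MRG6 at 0%, MRG3 and MRG5 at 41.2% and 37.7% and MRG2 at 80.4%, so MRG2 was not the low cow in it. The U1 RNA gene LOC112443636 had 10 of 14 sites lower, at 31.4% ± 27.8 in MSG and 75.5% ± 24.4 in MRG. IFFO2, of the intermediate filament family, had 9 of 10 sites higher, at 95% ± 2.83 in MSG and 60.6% ± 39.5 in MRG. ALDH4A1, a mitochondrial enzyme of proline breakdown, had 8 of 12 higher, at 86% ± 10.1 in MSG and 50.4% ± 30 in MRG, a difference of 35.6 points that was 10.6 over all 12 sites. MRG2 stood at 0% in both, and without it the difference at IFFO2 was 22.3 points in place of 34.4.

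TAS1R2 encodes a subunit of the sweet taste receptor. It was nearest to 90 sites, 71 higher in MSG, and all 11 of its promoter sites were higher, the reverse of CDA and TMCO4. The cows' means at the 71 sites came to 74.9% ± 14.6 in MSG and 33.8% ± 25.2 in MRG, with MSG cows from 56.4% to 92.4% with a median of 74.5% and MRG cows from 2.20% to 72.1% with a median of 30.6%. The groups overlapped through MRG1, which lay above MSG3, MSG6 and MSG4 at 56.4%, 61.8% and 70.5%. No other MRG cow was above 51.2%. A run of 14 higher sites (133787225 to 133789123) lay in an exon and 2 introns of ALDH4A1 and in a 3' untranslated region. In it MSG1 and MSG5 stood at 90.1% and 94.2%, MSG2, MSG4 and MSG6 at 48.4% to 51.9% and MSG3 at 8.33%, while MRG1 and MRG6 had 41.2% and 45.7% and no other MRG cow was above 3.36%. The promoter run of TAS1R2 (133796018 to 133800946, 13 sites, all higher) had 5 MSG cows at 88.5% to 95%, MSG6 at 45.4%, and MRG cows from 0% in MRG2 to 88.4% in MRG1. LOC536229, the Pax-7 gene of muscle stem cells (chromosome 2, 133926471 to 134029644), runs past the end of the window. The first listed site after the window is also nearest to it. Its sites inside the window were 13 lower and 13 higher. At the lower ones the cows' means stood at 29.3% ± 27.5 in MSG and 73% ± 19.6 in MRG, with MRG1 at 35.1% and MSG3 at 74.5%, and over all 26 the groups differed by -1.75 points.

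**Figure D3:**
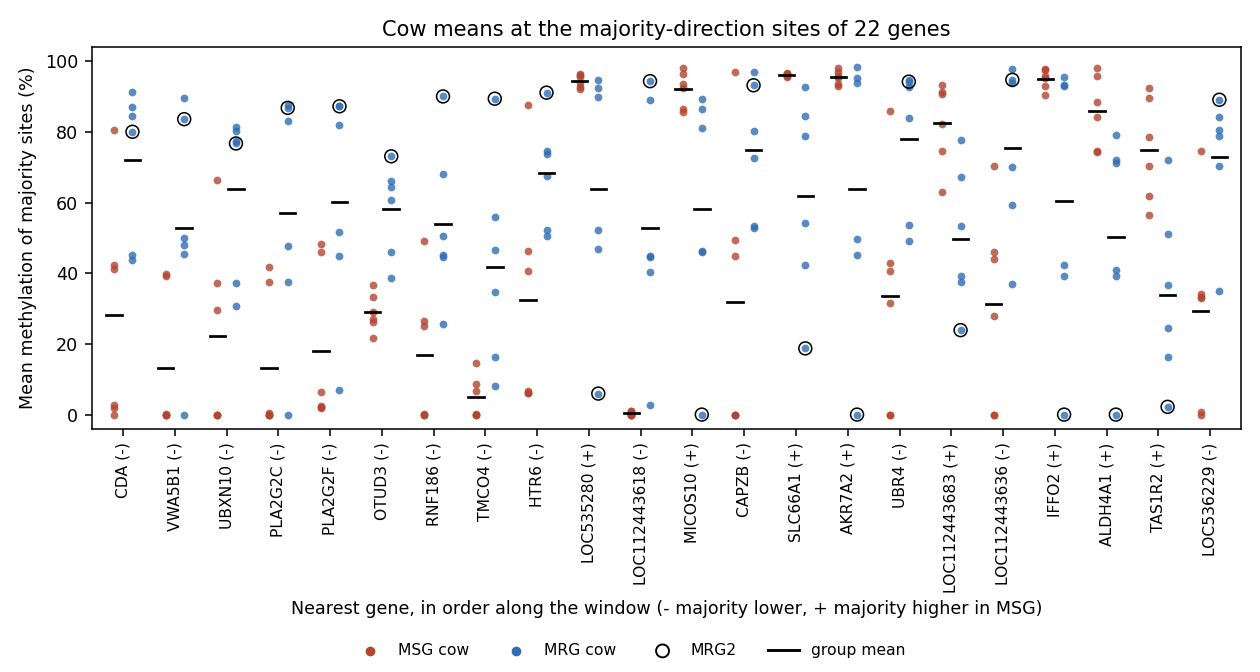
Mean methylation (%) of each cow at the majority-direction sites of the 22 genes named, in order along the window; red points are MSG cows, blue points MRG cows, black bars group means and circles MRG2. The direction is fixed by the choice of sites; in OTUD3, LOC112443618 and SLC66A1 the points of the groups do not overlap.

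Of the 22 genes named, 14 had a majority of lower sites or an even split and 8 a majority of higher ones. The groups' means at the majority sites did not overlap in 3, OTUD3, LOC112443618 and SLC66A1. Among all 3621 genes with at least 10 listed sites 10.1% had no overlap. Over all listed sites of a gene, lower and higher together, the difference was smaller by over 1.5 times or of the other sign in 13 of the 22. Besides those given above, it was -13.8 points in VWA5B1, -24.2 in PLA2G2C, -15.5 in HTR6, 17.1 in LOC535280, -21.3 in LOC112443636 and 22.6 in TAS1R2. The 11 other symbols had 45 sites together and at most 9 each, and 44 sites had no symbol. In the authors' deposited table the largest differences were 59.3 points, at 132080031 near FAM43B, and -67.3 points, at 132071582, which has no symbol.

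Other genes of the same pathways lay elsewhere in the genome. In a list of pyrimidine salvage genes, CDA held 49 of 106 listed sites; the 57 sites of DCK, DCTD, UCK2, UPP1 and UPP2 were 31 lower and 26 higher. In a list of actin capping genes, the 91 sites outside CAPZB were 59 lower and 32 higher; CARMIL1, a regulator of capping protein, held 32 of the lower ones, and without it the split was 27 to 28. In a list of N-degron ligases and enzymes, the 58 sites outside UBR4 were 7 lower and 51 higher, of which ATE1, an arginyl transferase gene, held 37, all higher. Of all listed sites 47.3% were lower. Sites of 1 gene are neighbours and no independent counts.

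Each cow had its own mix of low, intermediate and high values in the window. The share from 20% to under 80% was 5.74%, 47%, 31.6%, 37.3%, 4.24% and 29.4% in MSG1 to MSG6, and 44.3%, 8.35%, 40.6%, 73.4%, 51.2% and 38.9% in MRG1 to MRG6. At the other listed sites the same cows kept within 38.1% and 42.8%. MSG1, MSG5 and MRG2 thus had few intermediate values here, and MRG4 had many. With limits of 10% and 90%, chosen after seeing the data, MSG1, MSG5 and MRG2 were still the lowest, at 14%, 10.7% and 19.4%, and MRG4 the highest, at 81.3%.

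**Figure D4:**
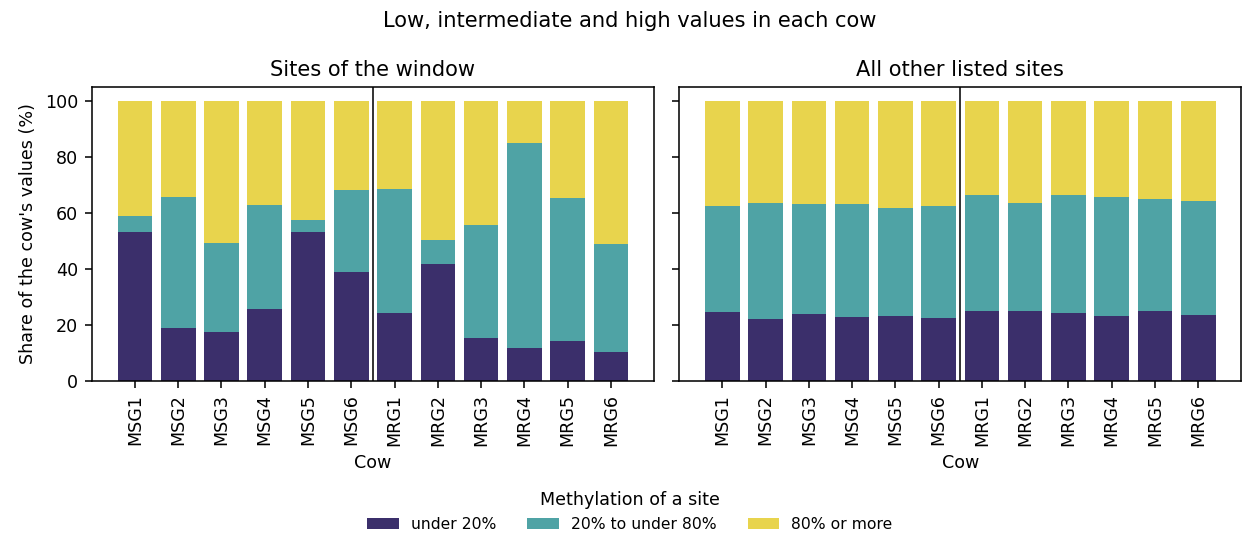
Share (%) of each cow's values under 20%, from 20% to under 80% and at 80% or more, at the sites of the window (left) and at all other listed sites (right); the line parts MSG from MRG. Intermediate values make up 4.24% of MSG5's values in the window and 73.4% of MRG4's, and about the same share in all cows elsewhere.

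Values at exactly 0 were 52.7% of MSG1's values in the window, 52.8% of MSG5's, 40.6% of MRG2's and 8.50% of MRG4's, against 20.1% to 23% over the 12 cows elsewhere. At 745 of the 793 sites (93.9%) at least 1 cow was at exactly 0, and at 78.3% of all listed sites. Of the 48 sites without such a cow 42 were higher and 6 lower in MSG, the opposite of the window as a whole. The same split over all listed sites was not counted, so it cannot be called particular to the window.

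Over the 12 cows as pairs, the window was compared with all other listed sites by exact sign-flip permutation tests, two-sided, adjusted over the 3 measures tested. The share at exactly 0 was 25% ± 16.6 in the window and 21.6% ± 0.98 elsewhere (n = 12, exact permutation p = 0.481, adjusted 0.59; higher in 5 of 12 cows). The share from 20% to under 80% was 34.3% ± 20.4 and 40.4% ± 1.46 (exact permutation p = 0.292, adjusted 0.59; lower in 8 of 12 cows). The mean difference between the strands of a CpG was 8.13 ± 3.65 points and 8.65 ± 0.656 points (exact permutation p = 0.59, adjusted 0.59; higher in 7 of 12 cows). None of the 3 passed 0.05, which does not show that the window is like the other sites. The spread over cows in the window was several times that elsewhere. For the intermediate share such a spread was common in dense windows: among the 348 windows of 2 Mb with at least 200 sites, the SD over cows of the intermediate share, 20.4 points, ranked 130th, beside a median of 18.3. The SD of the share at exactly 0, 16.6 points, ranked 79th beside a median of 12.5, and the strand difference was not ranked. By number of sites the window ranked sixth of 1353.

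Sets of low cows recurred along the window. With a cow called low under 20%, 105 different sets occurred, and the 5 commonest held 447 sites (56.4%). This share ranked 155th of the 348 dense windows, whose median was 54.7%, and the commonest set, with 22.4% of sites, ranked 167th beside a median of 22.1%. MRG2 alone was low at 178 sites, all higher in MSG, in 82 runs spread over 1830.2 kb. Its mean there was 0.232%, with MRG4 at 47.9%, MRG5 at 47.2% and the other 9 cows between 78.7% and 95%. MSG1, MSG5 and MSG6 together were the low cows at 91 sites over 1890.3 kb, with MSG2, MSG4, MRG1 and MRG4 at 47% to 52.2%. MSG1 and MSG5 alone were low at 70 sites, all from 133317029 on, where MSG6 averaged 45.3%. MSG1, MSG4, MSG5, MSG6 and MRG1 were the low cows at 56 sites, all between 132095536 and 132516182, which include the PLA2G2F region. These 3 sets were lower in MSG at every site. MRG2 with MRG5 made the fifth set, at 52 sites, all higher in MSG. In rows listed for a difference of at least 25 points, the low cows of these 5 sets all but fix the direction. Sets mixed at short range: of 242 neighbouring sites of different CpGs within 1 kb, 92 (38%) had the same set, against 46.5% elsewhere. This share elsewhere pools all other windows and was not computed for single ones, so 38% cannot be called unusual.

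MRG2 weighed most on the listed differences. It was the single lowest cow at 207 sites (26.1%), against 4.53% of sites elsewhere. The share elsewhere pools all other windows, and it was not computed for single windows. MRG2 was the single highest cow at 116 sites, a count for which no share elsewhere was computed. The group means differed by at least 25 points in the listed direction at 754 of 793 sites with all cows and at 577 (72.8%) without MRG2. Leaving out any other single cow kept between 712 and 770 sites. Elsewhere 88.6% of sites had that difference with all cows, 81% without MRG2, and 80.3% to 85.9% over the 12 cows left out in turn. The loss without MRG2 lay mostly among higher sites: 214 of 361 kept 25 points, against 338 with all cows, and 363 of 432 lower sites, against 416. This alternative was chosen after seeing the data.

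Likeness between sites over the cows fell with distance and then levelled off. For sites with a value in all 12 cows, centred within group, the median absolute correlation over cows was 0.918 between the strands of a CpG, 0.877 within 1 kb, 0.829 at 1 to 5 kb, 0.643 at 5 to 20 kb and 0.479 at 20 to 50 kb. From there to 2 Mb it stayed between 0.419 and 0.471. In 251 other windows the median fell to 0.31 at 1 to 2 Mb, with a 5th to 95th percentile range of 0.22 to 0.557, which takes in the window. Pairs on different chromosomes had 0.223. The points of each pair are the same 12 cows, and no p is given.

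**Figure D5:**
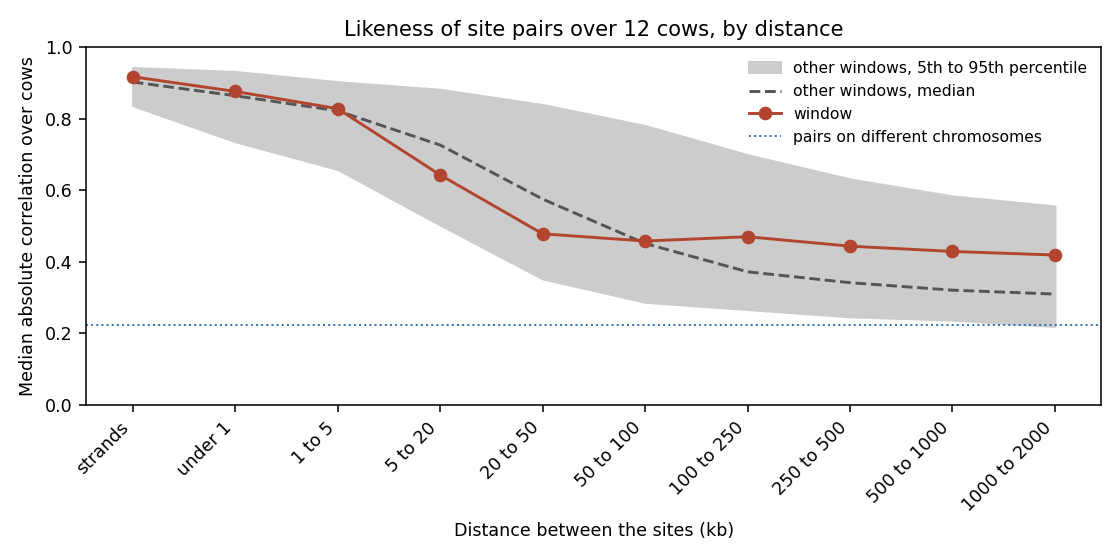
Median absolute correlation of site pairs over 12 cows (vertical axis, no unit) by distance in kb; points and line, the window; dashed line and grey band, median and 5th to 95th percentile of 251 other windows; dotted line, pairs on different chromosomes. The window stays at 0.419 for pairs 1 to 2 Mb apart and lies inside the band at every distance.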

How the data were processed

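Enzymatic methylation sequencing of blood DNA from 12 cows is described in the labels' protocols. The submitters' processing notes name fastp 0.23.1, Bismark, DRAGEN and ChIPseeker 1.32.1 and the build ARS-UCD1.2, with no role or order. The authors deposited percent methylation per cow for sites and tiles, with their difference in points, p-value and q-value, per the file headers. The test behind these was not given in the sources used here. All deposited rows have an absolute difference of at least 25 points and a q-value under 0.01. Of the tile columns, 36 with coverage and read counts carry no cow's name and were not used, so depth is unknown here.

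The members and lists were chosen with earlier results of these data known. Rows were taken by position, and cows by their labels. Named genes are CDA, TMCO4, CAPZB, UBR4 and every symbol with 10 or more sites in the window, with all tiles, the runs of 10 or more sites, and the most widely separated site of each direction; FAM43B, the site without symbol beside it and the smaller phospholipase genes were named after their values were seen. A gene's value in a cow is the mean over its sites of the majority direction (lower where even). For correlations, values were centred on their group mean. Window and other sites were compared by exact sign-flip permutation over 12 cows (4096 flips, smallest p 0.000488, Benjamini-Hochberg over 3), with code tested on simulated data, in Python 3.11.15 with numpy 2.4.6 and pandas 2.3.3. No sequence of the build was used. The counts of 1 further gene list are not reported here. Alternatives were other sites counted, other limits, a moved window, other gaps and each cow left out.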

Additional observations from a re-analysis of the deposited data

Results flagged for a closer look

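In 76 groups of 6 cows (means of the named genes, tiles, runs and cow measures of the window), 3 had a cow far from the others. For independent, normally distributed values chance alone gives about 1 in 20 such groups. These groups share cows and sites, so the rate by chance is not known here.

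In the promoter run of TAS1R2 (133796018 to 133800946) MSG6 stood at 45.4%, and the other MSG cows at 88.5% to 95%. At the lower sites of LOC536229 MRG1 stood at 35.1%, and the other MRG cows at 70.3% to 89.2%. MRG2 was the single lowest cow at 207 sites, and the other MRG cows at 0 to 26. MRG2 was not apart from its group in this sense in the mean of any named gene.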

How the results depend on the processing

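No paired analysis was possible because the replicate numbers only follow record order. The share of sites lower in MSG was 54.5%. It was 12.5% among the 48 sites with no cow at 0 and 68.6% at 40 points or more, and kept its side under the other alternatives. It stayed at 54.5% with any 1 cow left out, which says little. Every row had been listed for a difference of at least 25 points, so few directions could change. In the first 1 Mb the 23 sites with no cow at 0 gave 21.7%, an alternative chosen after seeing the data. The 16 sites without overlap became 4 among sites with no cow at 0. With a cow left out, which can only keep or raise the count, they became 17 to 92. Tiles without overlap stayed at 0. The strand difference, -0.517 points, ranged from -1.02 to 0.0106 with a cow left out and turned positive, at 0.0106, without MSG5. None of the 3 tests passed 0.05 in any alternative.

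Over both directions of sites together, gene differences shrank by over 1.5 times or changed sign in 13 of 22, among them TMCO4 (-36.9 to -6.54), OTUD3 (-29.2 to -3.85) and ALDH4A1 (35.6 to 10.6). The sign changed in LOC112443683 (-0.681 points) and MICOS10 (-0.697). Without MRG2 the difference in points moved by over 1.5 times in AKR7A2 (31.8 to 19), IFFO2 (34.4 to 22.3), LOC535280 (30.8 to 19.3), MICOS10 (33.9 to 22.3). The causes were not tested. Moving the window by 250 kb gave 703 and 1065 sites, and gaps of 500 bases and 2 kb gave 392 and 221 runs. The cows' number and unknown depth limit every value.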
